A study of Mus musculus with 6 samples.

Results

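Heme is built from glycine and succinyl-CoA by a chain of enzymes that starts in the mitochondrion, runs through the cytosol and ends in the mitochondrion again. Described here are 9 listed genes of that pathway: Alas1 and Alas2, which encode the ubiquitous and the erythroid form of the entry enzyme 5-aminolevulinate synthase; Alad, Uros and Urod, whose enzymes act in the cytosol; Cpox, Ppox and Fech, whose enzymes finish the porphyrin ring and insert iron in the mitochondrion; and Tspo, a protein of the outer mitochondrial membrane that binds porphyrins and cholesterol. They were taken by name from the 19938 genes with a probe set that names only that gene, and each had 1 such probe set. Of the 9, 8 passed a filter on low levels, among 11516 genes that passed.

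The cells were the adherent fraction of bone marrow cultures from mice of genotype Spic(igfp/igfp), an altered allele of the gene for the transcription factor SPI-C that all 6 samples carried. The culture medium held 20 ng/ml GM-CSF, which drives marrow precursors toward macrophages and dendritic cells. After 6 days the cultures received 80 µM heme (the labels type the unit as µm) or vehicle, which was 0.15 M NaCl with 10% NH4OH. One array was made per treatment and time: heme at 6, 24 and 72 h, and vehicle at 6, 24 and 72 h. Neither the age and number of the mice nor what the igfp allele carries is stated in the labels.

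In many cell types heme lowers its own synthesis by acting on ALAS1, through its transcript and through import and degradation of the protein, whereas ALAS2 is made in erythroid precursors and is governed by GATA1 and by iron. Macrophages are better known for the opposite arm, breakdown of heme taken up from red cells. Only transcript levels were measured here, not enzyme protein or activity.

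All values are log2 levels, and differences are heme minus vehicle on the log2 scale. A level was counted as measured where it reached 5.37, the median of all values on all arrays, and a gene was kept where its highest array did. With 1 array per treatment and time, a difference at a single time point has no test, and genes at 2-fold or more were counted. The test was a limma fit of treatment and time to the 6 arrays, adjusted by Benjamini-Hochberg over the 11516 genes, with a threshold of 0.05. Time points are not replicates, so its p-values and 95% intervals rest on spread between time points, not between replicates. The limma fit moderated each gene's spread toward that of all genes kept, with 2 residual and 7.17 prior degrees of freedom. An interval is therefore not a measure of the gene's own spread alone. The number of arrays limits the precision. The treatment left its mark in these arrays: Spic was 13.6-fold, 21.1-fold and 11.2-fold higher with heme at 6, 24 and 72 h. Macrophage markers such as Csf1r, Lyz2 and Cd68 were measured on all arrays, whereas 3 of 7 dendritic cell markers, Flt3, Zbtb46 and Cd209a, lay below 5.37 on all 6. The other 4 were measured, and 1 of them passed the test with heme, against 1.72% of all genes kept. This was Ccr7, a chemokine receptor of migrating dendritic cells, which rose (values beside Tspo). Itgax, H2-Ab1 and Cd74 had means of -0.085, 0.246 and 0.085 and did not pass (limma, adjusted p = 0.933, 0.619 and 0.921). Array medians ran from 5.34 to 5.45, highest on the 6 h heme array. The median difference of all genes kept was -0.10 at 6 h, and -0.22 there after median-centring. The 6 h differences of Alad and Urod are therefore also given relative to that median, and the pathway genes are counted against it. Other 6 h differences are given without that adjustment.

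Promoter sequences are shown for 5 of the 6 genes in which a motif tied to this pathway in other work lies before an annotated start. Uros, the other one, holds the GATA motif and the E-box in windows of separate starts and is not printed. RefSeq windows of GRCm38.p6, from 250 bases before to 50 bases after each start, matched 7 of the 9 genes with 10 windows. Fech and Tspo had none. The motifs were chosen with the sequences in view and searched on both strands, and capitals mark the match. The NRF1 motif, the capitals of the Alas1 line, is the palindrome bound by nuclear respiratory factor 1, known to act on ALAS1 promoters; the GATA motif was AGATAA or TGATAA; the E-box was CACGTG.

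Alas1, chr9:106247906-106247935, strand -: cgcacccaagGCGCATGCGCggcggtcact
Alas2, chrX:150547286-150547385, strand +: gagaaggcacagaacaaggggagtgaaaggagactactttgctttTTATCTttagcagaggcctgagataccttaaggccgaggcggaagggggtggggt
Cpox, chr16:58670077-58670176, strand +: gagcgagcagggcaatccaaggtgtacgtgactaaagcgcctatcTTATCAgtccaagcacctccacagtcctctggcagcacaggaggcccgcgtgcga
Alad, chr4:62520114-62520213, strand -: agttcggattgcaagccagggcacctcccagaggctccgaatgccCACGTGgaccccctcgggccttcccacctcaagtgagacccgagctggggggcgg
Urod, chr4:116994414-116994507, strand -: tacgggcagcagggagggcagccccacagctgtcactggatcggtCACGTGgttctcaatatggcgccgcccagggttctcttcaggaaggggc

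In all 32851 windows of the same length, the NRF1 motif was present in 0.971%, the GATA motif in 18.6% and the E-box in 7.15%. Among the pathway genes the NRF1 motif was found in Alas1, the GATA motif in Alas2, Cpox and Uros, and the E-box in Alad, Urod and Uros. The Alas1 match is a single site within overlapping windows of both its annotated starts. It lies 195 bases before the start used above and 29 bases after the other. The antioxidant response element, searched as TGAC, any 3 bases and GC, was in 12.4% of windows and in 0 of the 10. A match is a stretch of letters and shows no binding. These sequences are referred to again beside the levels below.

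With heme, 0 of the 8 measured pathway genes passed the test, against 1.72% of all genes kept (198 of 11516; 130 higher, or 1.13%, and 68 lower, or 0.59%). Adjusted p-values ran from 0.591 for Tspo to 0.985 for Alas1 (limma), and 0 of the 8 had an unadjusted p below 0.05, against 1223 of all genes. The widest interval, that of Urod, reached from -0.63 to 0.38, so a steady change of 2-fold over the 3 time points lay outside the interval of each of the 8 genes. Smaller changes, and changes at 1 time point, are not bounded by it. The largest single differences were a lower Urod at 6 h (-0.89) and a higher Tspo at 24 h (1.07).

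**Figure D1:**
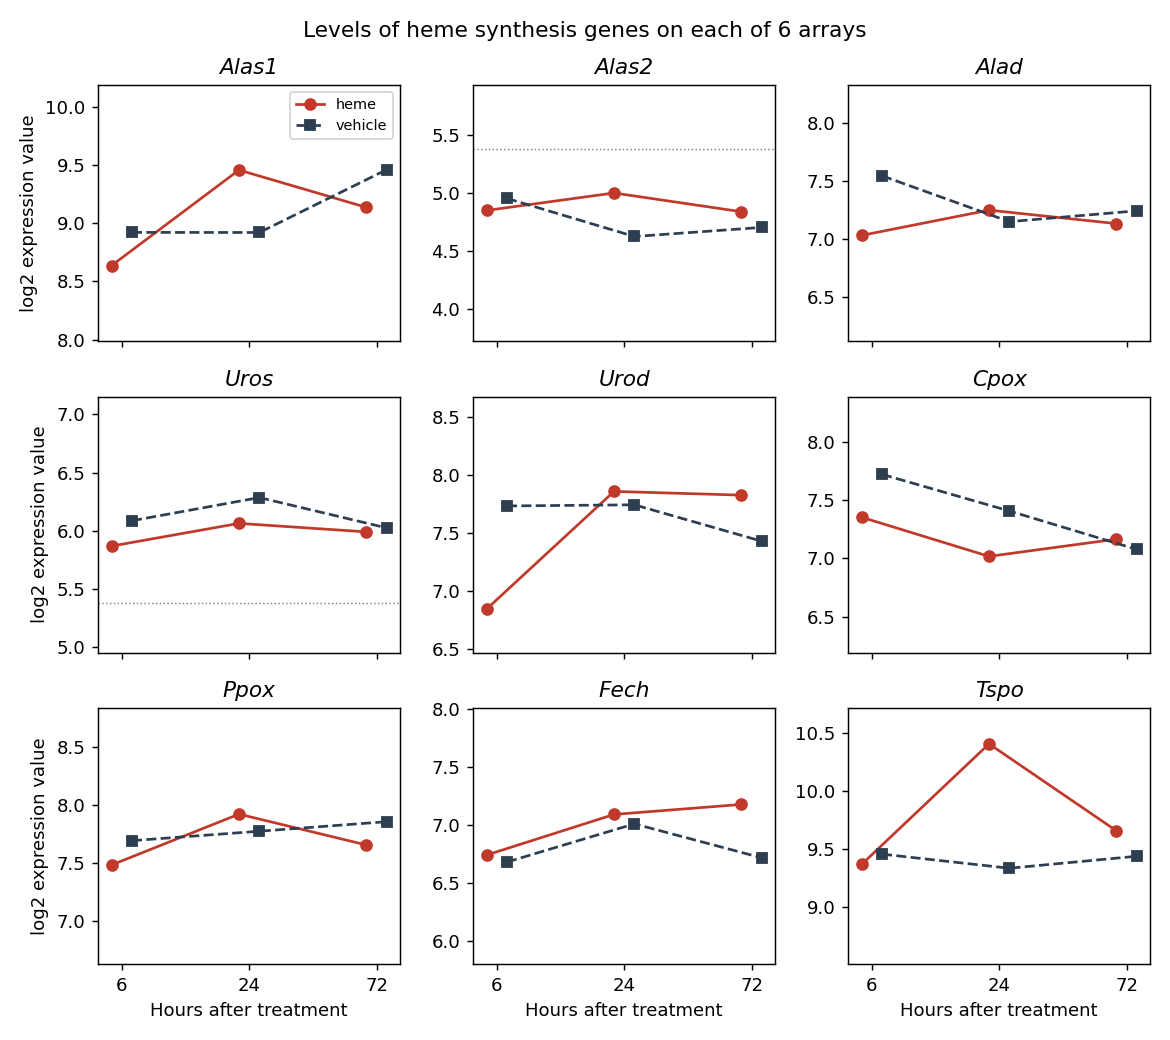
Level of each of the 9 genes (log2 expression value) against hours after treatment, with 1 point per array, heme as red circles and vehicle as dark squares. The dotted line is the level filter of 5.37, every panel spans the same height, and Alas2 lies below the line on all 6 arrays while Urod is lowest on the 6 h heme array and Tspo highest on the 24 h heme array.

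Alas1 (probe set 10596454) makes the entry enzyme of the pathway in non-erythroid cells. Its level was 8.64, 9.46 and 9.14 in heme cultures at 6, 24 and 72 h, against 8.92, 8.92 and 9.46 in vehicle cultures. Heme was thus the lower at 6 and 72 h and the higher at 24 h, and the ranges of the treatments overlapped. The differences were -0.28, 0.54 and -0.32, or 1.22-fold lower, 1.45-fold higher and 1.25-fold lower. Over the 3 time points the mean was -0.02 ± 0.49 (SD, n = 3 time points; 95% interval -0.44 to 0.39; limma, adjusted p = 0.985). The mean was 0.01 after a second quantile normalization and 0.02 after cyclic loess, so its direction depended on the scaling. At 24 h 95.7% of genes kept had a lower difference than Alas1, and at 72 h 9.87% did.

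Alas1 levels also differed between some arrays of different times in culture, though neither time contrast passed. Its level at 72 h exceeded that at 6 h by 0.50 in heme cultures and 0.54 in vehicle cultures, the highest vehicle level being that of 72 h. At 24 h it exceeded the 6 h level by 0.82 in heme cultures, while the vehicle levels at 6 and 24 h differed by -0.001. In the fit the 72 h minus 6 h contrast over both treatments was 0.52 (95% interval 0.01 to 1.03) and did not pass (limma, adjusted p = 0.26).

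Alas2 (10602372), the erythroid synthase, read 4.85, 5.0 and 4.84 on the heme arrays and 4.95, 4.63 and 4.70 on the vehicle arrays. All 6 values lay below 5.37, so no difference is drawn from them. Of 15 erythroid markers listed, 10 had a probe set naming only that gene, and 8 of these, among them Gata1, Klf1, Slc4a1, Epb42 and Epor, were likewise below the filter on every array. Tal1 and Nfe2, also expressed in other blood lineages, were the exceptions, and globin genes were not analysed here. The summed linear level of the erythroid list was 361 to 476 on heme arrays and 376 to 502 on vehicle arrays. The promoter stretch of Alas2 shown above holds a GATA motif, in the reverse orientation, 86 bases before the start.

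The cytosolic enzymes come next in the pathway. Alad (10513608), which joins a pair of aminolevulinate molecules into porphobilinogen, read 7.03, 7.25 and 7.13 with heme, against 7.54, 7.15 and 7.24 with vehicle. The 6 h pair was the only one more than 0.12 apart, with heme lower by 0.51 (0.41 relative to all genes). Over the 3 time points the mean was -0.17 ± 0.31 (SD, n = 3 time points; limma, adjusted p = 0.828). Alad was 0.22 higher at 24 h than at 6 h within heme cultures, and 0.40 lower within vehicle cultures. Its promoter stretch above carries the E-box.

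Uros (10568638), which closes the tetrapyrrole ring, varied least of the 8 measured genes, with an SD of 0.14 over the 6 arrays. Levels were 5.87, 6.06 and 5.99 in heme cultures and 6.09, 6.29 and 6.02 in vehicle cultures. Heme was lower at each time, by 0.22, 0.22 and 0.03, and the 2 ranges overlapped. Uros was the one measured gene lower at all 3 time points and Fech the one higher at all 3, and of all genes kept 30.2% had 1 sign at all 3. The mean of Uros was -0.16 ± 0.11 (SD, n = 3 time points; 95% interval -0.46 to 0.14; limma, adjusted p = 0.821).

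Urod (10515385), which removes carboxyl groups from the ring side chains, showed the widest gap between arrays of 1 time point at 6 h. It read 6.85 with heme and 7.73 with vehicle at 6 h, 7.86 and 7.74 at 24 h, and 7.83 and 7.43 at 72 h. The 6 h heme array stood below all 5 others, which lay between 7.43 and 7.86. The difference was 1.85-fold lower at 6 h (-0.89, or -0.78 relative to all genes), 0.12 at 24 h and 1.32-fold higher at 72 h (0.40). Only 1.35% of genes kept had a lower difference at 6 h, and 90.0% had a lower one at 72 h. The mean was -0.13 ± 0.67 (SD, n = 3 time points; limma, adjusted p = 0.926). Without the 6 h pair it was 0.26 (limma, adjusted p = 0.777). Within heme cultures Urod was 1.01 higher at 24 h than at 6 h and 0.98 higher at 72 h, against 0.01 higher and 0.30 lower in vehicle cultures. The summed linear level of 7 stromal markers, among them Sparc and Dcn, was likewise lower with heme at 6 h (437 with heme, 613 with vehicle) and higher at 72 h (1641 and 975), and was 549 and 547 at 24 h. The part of stromal cells in the Urod values was not tested.

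**Figure D2:**
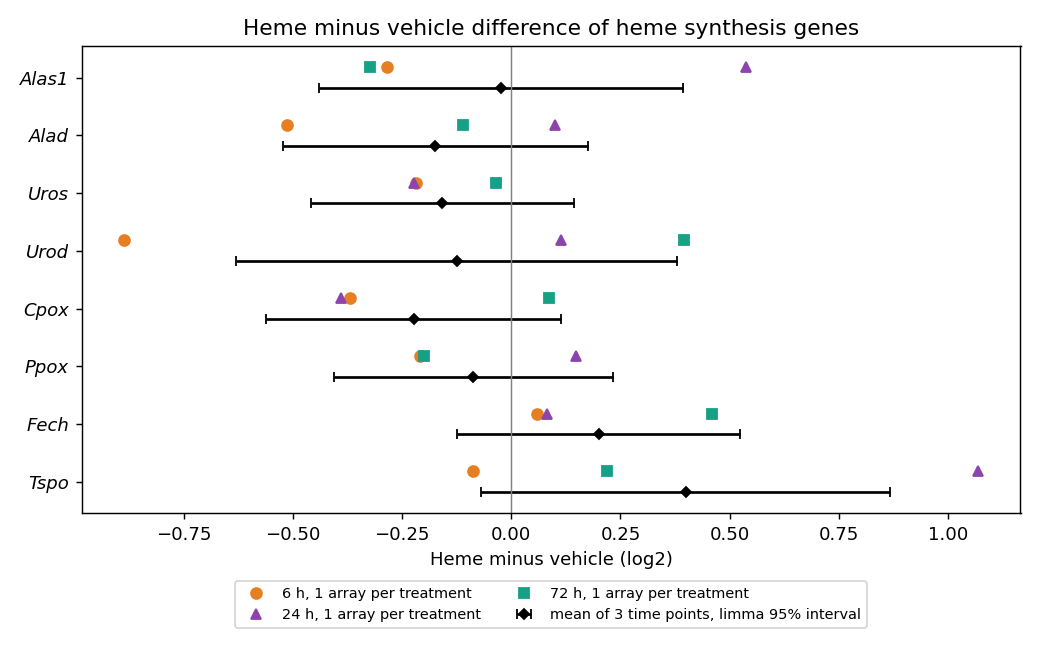
Heme minus vehicle difference (log2) of the 8 measured genes in pathway order, with 1 coloured point per time point and a black diamond for the mean over the 3 time points with its limma 95% interval. All 8 intervals include 0, and the points of Urod and Tspo are the most spread.

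The last steps take place in the mitochondrion. Cpox (10436392), coproporphyrinogen oxidase, read 7.35, 7.02 and 7.17 with heme, against 7.72, 7.41 and 7.08 with vehicle. Heme was lower by 0.37 at 6 h and by 0.39 at 24 h and differed by 0.09 at 72 h, within overlapping ranges (mean -0.22 ± 0.27, SD, n = 3 time points; 95% interval -0.56 to 0.11; limma, adjusted p = 0.723). Within heme cultures Cpox was 0.19 lower at 72 h than at 6 h, and within vehicle cultures 0.65 lower. The 72 h minus 6 h contrast over both treatments was -0.42 and did not pass (limma, adjusted p = 0.265). Cpox carries a GATA motif in the stretch shown above and a further one just after its annotated start.

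Ppox (10360090), protoporphyrinogen oxidase, stayed within 0.44 over all arrays, with 7.48, 7.92 and 7.65 in heme cultures and 7.69, 7.77 and 7.85 in vehicle cultures. Its differences of -0.21, 0.15 and -0.20 had the same signs in turn as those of Alas1 (mean -0.09 ± 0.20, SD, n = 3 time points; limma, adjusted p = 0.918). Fech (10459391), ferrochelatase, which inserts the iron and itself holds an iron-sulfur cluster, read 6.74, 7.09 and 7.18 with heme, against 6.68, 7.01 and 6.72 with vehicle. The treatments lay within 0.08 of each other at 6 and 24 h, and at 72 h heme was 0.46 higher, or 1.37-fold. The mean was 0.20 ± 0.22 (SD, n = 3 time points; 95% interval -0.13 to 0.52; limma, adjusted p = 0.763). After median-centring the 6 h difference of Fech was -0.06 in place of 0.06.

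Tspo (10425808) read 9.37, 10.40 and 9.66 in heme cultures and 9.46, 9.33 and 9.44 in vehicle cultures. The 24 h heme array stood above the 5 others, which lay between 9.33 and 9.66. Tspo was 2.10-fold higher at 24 h (1.07), 1.16-fold higher at 72 h (0.22) and differed by -0.09 at 6 h. It was the only one of the 8 genes at 2-fold or more at any time point in the values as deposited; after median-centring Urod at 6 h (-1.001) was as well. At 24 h, 1.42% of genes kept were at least 2-fold higher and 0.486% at least 2-fold lower. Over the 3 time points the mean was 0.40 ± 0.60 (SD, n = 3 time points; 95% interval -0.07 to 0.87; limma, adjusted p = 0.591). Without the 6 h pair Tspo passed (0.64; limma, adjusted p = 0.0341), in a fit with 1 residual degree of freedom among arrays. In that fit 521 of the 11516 genes kept passed, in place of 198. Without the 24 h pair the mean of Tspo was 0.07 (limma, adjusted p = 0.997).

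Neutrophil markers were also higher with heme at 24 h, where Tspo was. Of 9 listed, 5 were at least 2-fold higher then (S100a8, S100a9, Ngp, Camp and Csf3r), 0 were at 6 h, and S100a9 and Csf3r were at 72 h. Among all genes kept, 0.964%, 1.42% and 1.25% were at least 2-fold higher at 6, 24 and 72 h, and 1.72% passed the test. Csf3r, the receptor for G-CSF, was the one of the 9 that passed the test over time points (1.13 ± 0.25, SD, n = 3 time points; limma, adjusted p = 0.00661). Without the 24 h pair Csf3r did not pass (limma, adjusted p = 0.169), nor without the time term (limma, adjusted p = 0.955). Csf3r also ran against most of the list with time in culture. Its 72 h minus 6 h contrast over both treatments was 2.45, and that of Mpo was 0.10. S100a8, S100a9, Ngp, Camp and Ltf had contrasts of -2.34, -4.33, -5.20, -3.31 and -2.27. Those of Ly6g and Elane were -1.41 and -0.425. Ly6g was measured only on the 6 h vehicle array (5.38). The summed linear level of the list was 11660 with heme and 10040 with vehicle at 6 h, 8035 and 2107 at 24 h, and 2138 and 1241 at 72 h. The primary granule genes Mpo and Elane stayed at 5.63 or less on all arrays. Of the 4 measured dendritic cell markers 1 passed, Ccr7. It was 1.82-fold, 3.59-fold and 1.72-fold higher at 6, 24 and 72 h (mean 1.16 ± 0.59, SD, n = 3 time points; limma, adjusted p = 0.0279). It did not pass without the 24 h pair (limma, adjusted p = 0.302) or without the time term (limma, adjusted p = 0.394). The part of neutrophils or dendritic cells in the Tspo values was not tested, and on bulk arrays a change in the share of a cell type and a change in RNA per cell cannot be told apart. In vehicle cultures the list's sum was highest at 6 h, and Tspo differed from its 6 h level by -0.12 at 24 h and -0.02 at 72 h.

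The pathway genes were mostly lower with heme at 6 h and mixed in direction later, within single pairs of arrays. At 6 h 7 of the 8 genes were lower with heme (8 after median-centring), where 63.5% of all genes kept were lower, and 6 of 8 lay below the median of all genes. Their median difference was -0.25, against -0.10 for all genes kept. At 24 h 2 of 8 were lower (53.2% of all genes), with a median of 0.11 against -0.02, and at 72 h 4 of 8 (44.7%), with a median of 0.03 against 0.03. The numbers below the median of all genes were 6, 2 and 4 after a second quantile normalization and after cyclic loess too. Median-centring shifts all values of an array alike, so it could hardly change these numbers and is no check on them. As deposited, no gene of the 8 was 2-fold lower at any time (1 after median-centring, Urod at 6 h), and 0 were 2-fold higher at 6 or 72 h, where 0.964% and 1.25% of all genes were higher and 0.669% and 0.608% lower. At 1.5-fold or more, Urod counted at 6 h (3.36% of all genes higher, 6.89% lower), Tspo at 24 h (3.7% higher, 2.83% lower) and 0 genes of the pathway at 72 h (4.21% higher, 2.67% lower). Whether the time points differ was not tested, since 1 array per group leaves no residual for it.

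**Figure D3:**
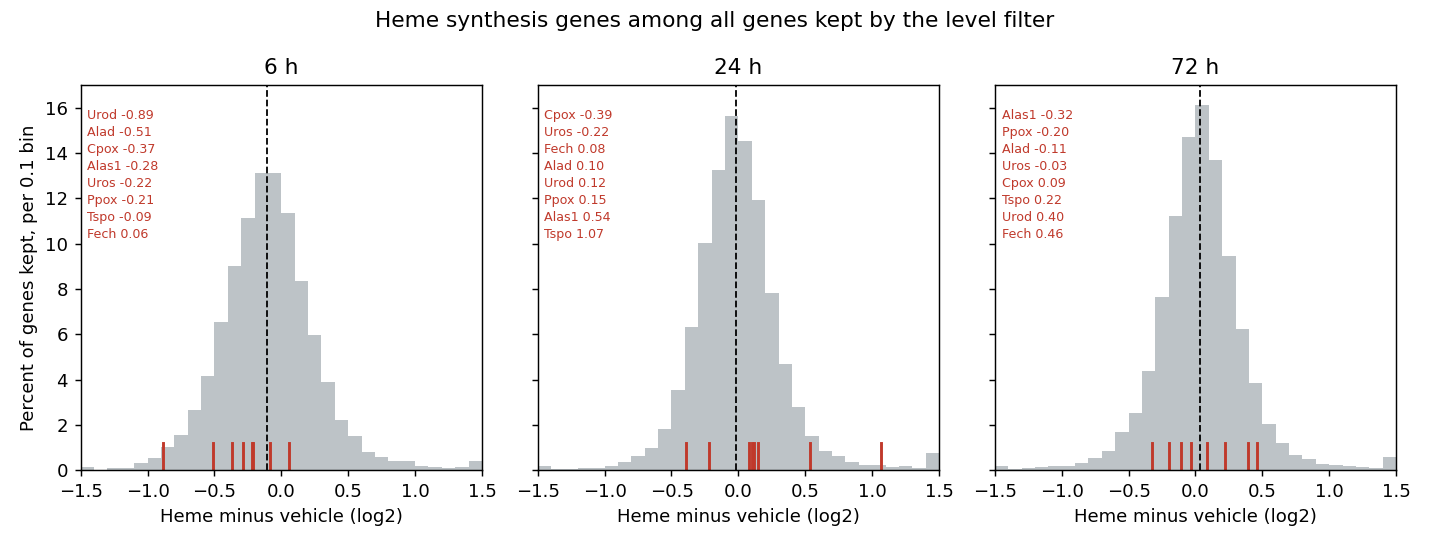
Distribution of heme minus vehicle differences (log2) of the 11516 genes kept, in percent of genes per bin, at 6, 24 and 72 h, with values beyond 1.5 in the end bins and the median dashed. Red ticks are the 8 measured genes, whose values are written in each panel; at 6 h 6 of them lie left of the dashed line.

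With time in culture 0 of the 8 genes passed, either between 24 h and 6 h (limma, adjusted p from 0.474 to 0.909; 0.599% of all genes passed, 0.226% higher and 0.373% lower) or between 72 h and 6 h (limma, adjusted p from 0.26 to 0.958; 6.59% passed, 3.06% higher and 3.53% lower). Alas1 and Cpox had an unadjusted p below 0.05 in the second contrast, in opposite directions. Over the 6 arrays their levels ran against each other (Pearson r = -0.72), the lowest of the 28 pairs of measured genes. Alas1 and Ppox had the highest (r = 0.88), and the median of the 28 was 0.29. These correlations rest on 6 arrays that share treatments and times and are given as a description. The 5 kept genes whose pattern over the 6 arrays was most like that of Alas1, among 1969 at least as variable, were Coq8a, Gng11, Dyrk1b, Dhdh and Ltc4s (r from 0.89 to 0.91). For Tspo, the most variable of the 8, they were Uchl1, Clu, C1rl, Osbpl3 and Ceacam19 among 1249 (r from 0.92 to 0.97). Uchl1 reached the level filter only on the 24 h heme array (5.85, against 4.52 to 4.76 on the others). Clu and Ceacam19 reached it only on the heme arrays of 24 and 72 h. The likeness of Uchl1, Clu and Ceacam19 to Tspo therefore rests largely on the 24 h heme array, where each was highest.

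Genes that supply or assist heme synthesis in the mitochondrion had 1 of 15 measured members past the test, and 0 fell. Of all genes kept 1.72% passed, the share to set beside this list and the lists below. At that share a count of 0 in lists this short says little about them. Slc25a37, mitoferrin 1, which brings iron into the mitochondrion, read 6.91, 7.24 and 7.71 with heme, against 6.15, 6.19 and 6.39 with vehicle. Every heme array was above every vehicle array. It rose by 1.05 ± 0.28 (SD, n = 3 time points; 95% interval 0.70 to 1.39; limma, adjusted p = 0.0112). Without the 24 h pair the mean was 1.04 and did not pass (limma, adjusted p = 0.247). Its paralog Slc25a28, named after its values were seen, differed by -0.16, 0.19 and 0.19. The porphyrin transporter Abcb6 differed by 0.03, 0.57 and 0.55 (limma, adjusted p = 0.393), and Tmem14c, which helps porphyrin import, by -0.79, 0.12 and -0.30 (limma, adjusted p = 0.626). The succinyl-CoA ligase subunit Suclg2, named after its values were seen, was the one member 2-fold lower at 6 h (-1.18), and differed by -0.21 and 0.56 later. The median of the list was -0.26, 0.12 and -0.12 at 6, 24 and 72 h.

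Iron-sulfur cluster assembly, which Fech depends on, had 0 of 12 measured members past the test. All 12 were lower with heme at 6 h, where 63.5% of all genes were, with a median of -0.27, against 8 and 7 of 12 at 24 and 72 h. The co-chaperone Hscb differed by -0.83, -0.22 and -0.27 (limma, adjusted p = 0.317), the cysteine desulfurase Nfs1 by -0.59, -0.09 and -0.12 (limma, adjusted p = 0.647) and the ferredoxin Fdx1 by -0.66, -0.001 and 0.07 (limma, adjusted p = 0.822). Of enzymes around glycine and succinyl-CoA, the substrates of Alas1, 0 of 7 passed. Shmt2, which makes glycine in the mitochondrion, differed by -0.69, -0.11 and -0.12 (limma, adjusted p = 0.581), while Dlst and Ogdh of the oxoglutarate dehydrogenase complex had means of 0.05 and -0.04.

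A list of proteases and regulators of Alas1 likewise had 0 of 12 measured members past the test. It also held iron regulatory protein genes, although control by iron was described above for ALAS2, not ALAS1. Nrf1, whose motif stands in the Alas1 stretch above, differed by 0.28, -0.13 and 0.08 (limma, adjusted p = 0.929), and Clpx, the mitochondrial unfoldase that acts on ALAS protein, by -0.27, 0.00 and 0.56 (limma, adjusted p = 0.925). Nrf1 and Clpx were named after their values were seen. Egr1 differed by -0.14, -0.23 and -0.72, the circadian repressor Nr1d1 by -0.13, 0.21 and 0.70, and the iron regulatory protein gene Aco1 by -0.32, -0.18 and -0.17 (limma, adjusted p = 0.437, 0.713 and 0.66). Of partners of Tspo, 0 of 6 passed, and the channels Vdac1, Vdac2 and Vdac3 had means of 0.12, -0.10 and 0.08.

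Of the genes of heme breakdown, 1 of 4 passed the test. Hmox1, heme oxygenase 1, was 6.77-fold, 6.67-fold and 4.83-fold higher at 6, 24 and 72 h (limma, adjusted p = 8.86e-05), while Hmox2 had a mean of -0.25 (limma, adjusted p = 0.612) and the biliverdin reductase gene Blvra, named after its values were seen, a mean of -0.23 (limma, adjusted p = 0.653). Blvrb, a further biliverdin reductase, differed by 0.56, 1.89 and 0.80 (limma, adjusted p = 0.0589). It passed after median-centring (limma, adjusted p = 0.015), with the mean of probe sets (limma, adjusted p = 0.0488) and without the 6 h pair (limma, adjusted p = 1.45e-06), and adjusted p under the other alternatives ran up to 0.472. Among proteins that carry heme or place it in cytochromes, 1 of 13 rose and 0 fell. Catalase, Cat, a heme enzyme that breaks down hydrogen peroxide, read 10.29, 11.18 and 10.98 with heme, against 9.80, 9.94 and 9.93 with vehicle. Each heme array was above all vehicle arrays, and Cat rose by 0.93 ± 0.39 (SD, n = 3 time points; limma, adjusted p = 0.0289). With the 24 h pair left out Cat did not pass (limma, adjusted p = 0.471), nor with the 72 h pair left out (limma, adjusted p = 0.0825). Cybb, the heme-binding subunit of the phagocyte oxidase, had differences of 0.48, 0.36 and 0.43 (limma, adjusted p = 0.216), and Ptgs2, also a heme enzyme, of 0.29, 0.76 and 0.45 (limma, adjusted p = 0.18).

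**Figure D4:**
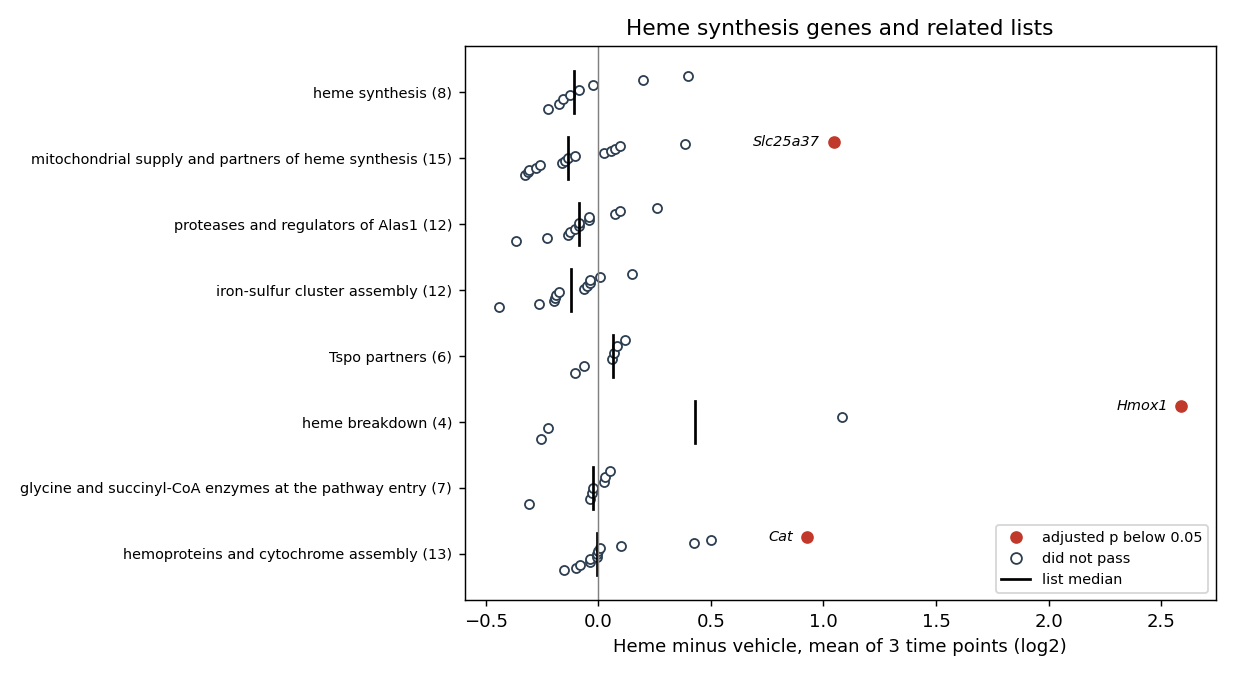
Mean heme minus vehicle difference over the 3 time points (log2) of each measured gene in the pathway and in 7 related lists, with the number of genes in brackets and the list median as a black bar. Filled red points passed an adjusted p of 0.05 (Slc25a37, Hmox1 and Cat), and all 8 pathway genes are open points between -0.22 and 0.40.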

How the data were processed

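Biotin-labelled cRNA of 6 samples was hybridised to single-colour arrays. The authors deposited log2 values after RMA and quantile normalization, per the submitters' processing notes; ArrayStar is named in the series' text, with no version in the material used here. RMA compresses differences of dim probe sets.

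The platform annotation gave 1 gene for 21789 of the 35556 probe sets, several for 1621 and none listed for 12146; 21698 of the 21789 were found in the GRCm38.p6 gene table by identifier. Where several probe sets named a gene (999 genes), that of highest mean level was taken. Kept genes were fitted by lmFit and eBayes of limma 3.58.1 under R 4.3.3, two-sided, with 2 residual and 7.17 prior degrees of freedom. The fit was tested on simulated data, where it recovered 51.1% of steady changes of 0.5 and 99.9% of those of 1 (log2). Of its calls there 6.17% were false. The simulated noise was normal, independent between arrays and set to the fit's own moderated spread. Each run changed 200 genes at each of the sizes 0.5, 1 and 2. These shares hold for that setting and need not hold for the arrays. Whether arrays came from separate mice or cultures is not stated.

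Alternatives covered 3 other scalings, no filter and a stricter one, averaged probe sets, an added linear offset of 16, a variance trend, robust eBayes, no time term, each time point left out, and other fold thresholds. Members, lists and tests were chosen with earlier results of these data known. Named genes were the members, listed genes that passed, up to 3 more per list with the largest mean difference, Spic, Hmox1 and genes of like pattern; marker genes and stated exceptions were named after their values were seen.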

Additional observations from a re-analysis of the deposited data

Results flagged for a closer look

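Alas1 and Urod differed from vehicle in opposite directions at different time points, by at least 0.3 on the log2 scale each way, a minimum set after the values were seen. The heme minus vehicle difference of Alas1 was 0.54 at 24 h and -0.32 at 72 h, a gap of 0.86. That of Urod was 0.40 at 72 h and -0.89 at 6 h, a gap of 1.28. Each value rests on 1 pair of arrays, and neither gap was tested.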

How the results depend on the processing

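No pathway gene passed the heme test under any alternative but 1, and 0 passed either time contrast under those run for it. Without the 6 h pair 1 of 8 passed, Tspo, and the count was 0 to 1 with a time point left out. Calls over all genes were 521, 12 and 201 without the 6, 24 and 72 h pair, and 18 without the time term, in place of 198. The split of the 198 was 65.7% higher, against 76.2% after cyclic loess (115 higher, 36 lower); after median-centring 162 were higher and 117 lower. Calls between 24 h and 6 h over all genes were 69, and 171, 23, 109 and 104 after median-centring, cyclic loess, with the mean of probe sets and with robust eBayes. At a threshold of 1.5-fold 1 gene of the pathway counted at 6 h in place of 0 (Urod), and at 4-fold 0 counted at 24 h in place of 1 (Tspo). The cause was not tested. The mean differences of Alad, Uros, Cpox, Ppox, Fech and Tspo kept their sign in all 13 alternatives, that of Urod in 12 and that of Alas1 in 9. Slc25a37 and Cat did not pass without the time term (limma, adjusted p = 0.179 and 0.348). Alas2 lay below the level filter on all 6 arrays, which limits any statement on it.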
